A study of Rattus norvegicus with 60 samples.

Results

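Knee joint tissue and popliteal lymph node of sham-operated rats were compared to describe what separates both tissues when no joint bleed has been induced. The arrays were chosen by their labels: 7 of sham knee tissue and 9 of sham lymph node, 16 of the 60 arrays of the study. All 20 rats of the study had haemophilia A, so the sham rats carried the disease too. The bleed was induced in 11 of them and the other 9 had a sham procedure, and tissue was collected 24 h later. The knee tissue was taken from inside the joint, both sham tissues came from the right side, and 7 rats (C1, C2, C3, C5, C6, C7 and C9) gave both tissues, which paired them. The nodes of C4 and C8 had no knee array, because those knees yielded too little RNA. For comparison, each bled rat gave a contralateral knee and node from the right side and a bled knee and node from the left, 11 arrays of each. Each sample was 1 rat, while sex, age and how the haemophilia strain was made are not stated by the labels used here.

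The synovium that lines a joint has an outer layer of macrophages and fibroblasts, which secrete lubricin and hyaluronan, over a sublining of fibroblasts, blood vessels, nerves and fat. A lymph node is built of B cell follicles, T cell zones and a medulla, held by specialised stromal cells, and blood lymphocytes enter it through high endothelial venules. The popliteal node lies behind the knee and drains the lower hind limb. Both samples were pieces of whole tissue, so fewer cells of a type and less RNA per cell cannot be told apart.

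The values were log2 expression values, 1 per probe set and array. Levels are given as the lowest, the median and the highest array of the 7 knees or the 9 nodes, and a difference is the mean of knee minus node over the 7 rats with both tissues, in log2 units ± SE. Probe sets were tested with limma with the rat as a block, and a difference with a Benjamini-Hochberg adjusted p under 0.05 was called. Levels of different probe sets are not comparable with each other, and precision was limited by how few arrays there were.

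The labelled tissues carried their markers. Of 12 knee markers 11 were measured and all 11 were higher in the knee, where Comp was not measured. Of 10 node markers that were measured, 9 were higher in the node. The exception was Madcam1, which encodes an adhesion molecule of venules in mucosal lymphoid tissue and of some node endothelium, with levels of 5.28 to 6.01 in the knees and 5.11 to 5.72 in the nodes (0.20 ± 0.14, adjusted p = 0.312). Array medians lay between 5.70 and 5.94. The knee array of C5 correlated less with the other knees (mean r = 0.957, the other knees 0.973 to 0.977), and the node arrays of C9 (0.960) and C2 (0.976) less with the other nodes (0.984 to 0.985). Counts with only rats C1, C3, C6 and C7 leave out these 3 rats. Probe sets that were dim in both tissues had a mean of 3.82 on the knee array of C5 (other knees 3.51 to 3.59). On the node array of C9 that mean was 3.71 (other nodes 3.43 to 3.51).

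Of 36685 probe sets, 5694 were higher in the knee (15.5%) and 8325 in the node (22.7%), and with only C1, C3, C6 and C7 these counts were 5377 and 7753. Knee-higher probe sets thus made up 40.6% of the calls, against 49.6% after quantile normalization of the sham arrays and 48.5% with each array centred on its median, so the excess of calls toward the node moved with the scaling. Among the 18166 genes with a probe set of their own, 4150 were higher in the knee (22.8%) and 4529 in the node (24.9%). Among the 18174 probe sets without a single gene symbol, 1488 were higher in the knee and 3687 in the node, so the excess toward the node lay largely there. A called difference of at least 2-fold was met by 1790 genes in the knee (9.85%) and 1458 in the node (8.03%), and one of at least 16-fold by 51 and 84 genes. The signals of the 7 knees and the 9 nodes did not overlap for 7586 probe sets (20.7%). At the other end, the 95% interval of the difference lay within 0.5 log2 units of 0 for 12111 probe sets (33.0%).

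The 15 genes with the largest differences toward the knee were led by matrix and lining genes. Aspn, which encodes the matrix proteoglycan asporin, ran from 10.20 to 11.35 in the knees (median 11.12) and from 4.46 to 5.41 in the nodes (median 4.91), a 69.3-fold difference (6.12 ± 0.17, adjusted p = 9.87e-09). Prg4, the lubricin gene of the joint surface and the fourth in size, was at 12.92 to 13.28 in the knees (median 13.05) and 7.09 to 8.29 in the nodes (median 7.62), 44.9-fold apart (5.49 ± 0.13, adjusted p = 4.65e-09). For both genes every knee lay above every node. Sfrp4, a secreted Wnt antagonist (5.82 ± 0.18), and Myoc, which encodes the secreted glycoprotein myocilin (5.81 ± 0.16), lay between Aspn and Prg4, and Calml3, a calmodulin-like gene (5.48 ± 0.11), came after them. Clec3a, a lectin gene of cartilage, had a similar difference (5.47 ± 0.50) but a far wider range in the knees, from 7.19 in C2 to 12.18 in C1. Fndc1, a fibronectin domain gene (5.19 ± 0.13), Fap, the fibroblast activation protein (4.86 ± 0.11), and the lining genes Htra4, a secreted protease (4.93 ± 0.28), and Clic5, a chloride channel family gene (4.77 ± 0.20), also stood among them. The rest were the fast muscle light chain gene Myl1 (5.03 ± 0.88), the imprinted gene Nnat (4.74 ± 0.16) and the fat cell genes Cidec, Lgals12 and Pck1 (4.74 to 4.85). Of these 15, Myl1 had the highest knee-to-knee spread, from 6.09 to 13.25.

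The 15 leading genes of the node were mostly genes of lymphocytes and of node vessels. Glycam1 encodes a mucin of high endothelial venules, and it was at 12.60 to 12.96 in the nodes (median 12.75) and 4.55 to 6.67 in the knees (median 5.18), 171-fold apart (−7.42 ± 0.26, adjusted p = 3.15e-08). Cr2, the complement receptor of B cells and follicular dendritic cells, was at 11.15 to 11.85 in the nodes and 3.39 to 4.56 in the knees (−7.30 ± 0.16, adjusted p = 3.17e-09). Il22ra2, the soluble interleukin 22 binding protein, was 146-fold higher in the node (−7.19 ± 0.12, adjusted p = 1.08e-09), with nodes at 11.20 to 11.57. In all 3 genes the tissues were far apart and the nodes were close to each other. Jchain, which joins immunoglobulin polymers (−6.87 ± 0.24), the B cell surface gene Ms4a1, known as CD20 (−6.40 ± 0.12), the B cell scaffold gene Bank1 (−5.93 ± 0.13), and the lymphocyte receptor genes Slamf6 (−5.96 ± 0.12) and Btla (−5.77 ± 0.10) were among them. So were Cd3g of the T cell receptor complex (−5.94 ± 0.18), Ms4a4c (−6.50 ± 0.24), the lectin gene Clec4m (−5.71 ± 0.10), the glycosyltransferase gene B3gnt5 (−6.56 ± 0.10) and 3 loci named Igkv2-112l2, Ighl14 and LOC690786 on the array. The 2 loci with immunoglobulin names belong to a large gene family, so signals of related segments on 1 probe set cannot be told apart.

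**Figure D1:**
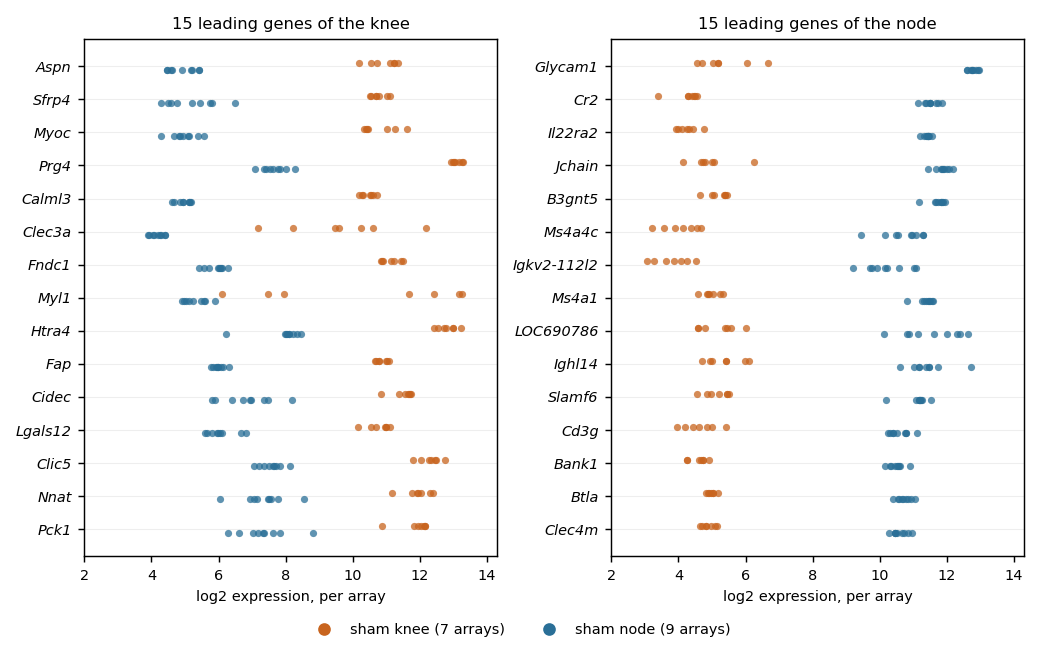
Signal of the 15 leading genes of each tissue in every sham array (log2 expression; orange, 7 knees; blue, 9 nodes; 1 point per array). The arrays of the tissues lie apart for each gene shown; Myl1 and Clec3a spread most among the knees, with Myl1 running from 6.09 to 13.25.

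Fibroblast genes were higher in the knee nearly throughout. Of 13 genes of the synovial lining 12 were higher in the knee (median over the list 1.85, against 0.06 over all genes), and of 18 sublining and general fibroblast genes all 18 were (median 2.05). Has1, a hyaluronan synthase gene, was at 7.49 to 9.20 in the knees (median 8.56) and at 4.26 to 4.66 in the nodes (4.14 ± 0.20, adjusted p = 2.19e-07). Fn1, the fibronectin gene, was 20.9-fold higher in the knee (4.39 ± 0.14, adjusted p = 1.82e-08), and Cd248, a marker of stromal cells around vessels, 3.91 ± 0.14 higher. Pdgfra, Dpt and Thy1, which mark fibroblasts widely, differed by 0.78 to 1.35, and Dpt was at 12.09 to 12.37 in the knees and 10.40 to 11.06 in the nodes. The 1 lining gene that went the other way was Vcam1, an adhesion molecule that node stroma and endothelium also carry (−0.99 ± 0.12, adjusted p = 8.97e-05).

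The matrix lists moved with the fibroblasts. All 11 small leucine-rich proteoglycan genes were higher in the knee, as were 26 of 35 collagen chain genes and 17 of 21 genes of basement membrane and elastic fibres, with list medians of 2.25, 1.02 and 1.83. Among collagens Col14a1, a fibril-associated collagen of tendon and skin, had the largest difference (4.28 ± 0.13), ahead of the type I chains Col1a2 (3.36 ± 0.14) and Col1a1 (3.14 ± 0.18). Col17a1 and Col26a1 were the 2 chains called toward the node, by −0.55 ± 0.11 and −0.53 ± 0.14, and the call of Col26a1 was lost with only C1, C3, C6 and C7 (adjusted p = 0.0644). The crosslinking enzyme gene Lox was at 9.10 to 10.81 in the knees and 5.44 to 6.82 in the nodes (3.73 ± 0.29, adjusted p = 5.37e-06), and the microfibril gene Fbn1 at 11.44 to 12.12 and 8.57 to 8.91 (2.85 ± 0.11). Ltbp2, which binds microfibrils, was the exception in that list (−0.99 ± 0.22, adjusted p = 0.00472), a call lost with only C1, C3, C6 and C7 (adjusted p = 0.102).

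Cartilage, tendon and bone genes varied more from knee to knee. Of 19 cartilage matrix genes 10 were higher in the knee, 1 was higher in the node and 8 were not called (median 0.44). Only 10 of the 19 had a mean above the highest array median in either tissue. Of 9 tendon and ligament genes 7 were higher in the knee (median 1.97). Of all genes 22.8% were higher in the knee and 24.9% in the node. Chad, the cartilage proteoglycan chondroadherin, ran from 8.61 to 13.01 in the knees (median 10.98) and from 6.41 to 7.56 in the nodes (3.76 ± 0.37, adjusted p = 2.82e-05). Col2a1, the main collagen of cartilage, was at 6.21 to 7.69 in the knees and 5.21 to 5.76 in the nodes (1.37 ± 0.17). Acan, the aggrecan gene of cartilage, was at 9.12 in the knee of C1 and at 4.91 to 6.12 in the other 6 knees, against 4.11 to 4.68 in the nodes (1.67 ± 0.48, adjusted p = 0.0193), and its call was lost with only rats C1, C3, C6 and C7 (adjusted p = 0.0773). Kera, a corneal and tendon proteoglycan gene, was high in the knees of C7 (9.15) and C1 (8.14) and at 4.5 to 5.41 in the other 5. Epyc, a growth plate proteoglycan gene, was low in both tissues, at 3.63 to 4.23 and 3.63 to 4.15. Of 14 bone and osteoclast genes 4 were higher in the knee and 2 in the node, where 22.8% and 24.9% of all genes were, and with only C1, C3, C6 and C7 it was 4 each way. Phex, an osteocyte endopeptidase gene, was 13.9-fold higher in the knee (3.80 ± 0.18, adjusted p = 2.01e-07), and Mmp9, a gelatinase that osteoclasts and neutrophils share, was higher in the node (−3.69 ± 0.23, adjusted p = 1.30e-06).

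Fat genes were high in all 7 knees. Of 21 adipocyte genes 19 were higher in the knee, all 19 by at least 2-fold (median 3.90). The list mean lay between 10.49 and 11.12 in the knees and between 7.25 and 8.62 in the nodes. Adipoq, the adiponectin gene, was at 12.50 to 13.07 in the knees (median 12.96) and at 7.67 to 10.62 in the nodes (median 9.35), a difference of 3.90 ± 0.21 (adjusted p = 4.91e-07), with a narrower range among the knees than among the nodes. Lep, the leptin gene, differed by 3.76 ± 0.13, Pparg, the master regulator of fat cells, by 4.04 ± 0.23, and Cidec, a lipid droplet gene, by 4.85 ± 0.21. Acly, a lipid synthesis gene that many cells use, differed by −0.13 ± 0.10 (adjusted p = 0.356), and Ucp1, which marks brown fat, stayed at 4.02 to 4.45 in the knees and 3.70 to 4.02 in the nodes (adjusted p = 0.0555).

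Skeletal muscle genes, in contrast, differed from knee to knee. The mean of the 21 muscle genes was 11.91 in the knee of C6, 11.90 in C9, 10.69 in C1 and 9.94 in C2, but 6.85 in C3, 6.48 in C5 and 5.88 in C7, whereas the 9 nodes lay between 5.83 and 6.29. The knee of C7 thus lay within the range of the nodes. Ckm, the muscle creatine kinase gene, was at 6.34 in C7, 7.70 in C5, 7.72 in C3, 11.69 in C2, 12.32 in C1, 13.38 in C6 and 13.58 in C9. Its difference was 4.09 ± 0.87 (adjusted p = 0.00417), with 1 rat in the other direction and overlapping groups, and it was lost with only rats C1, C3, C6 and C7 (adjusted p = 0.0590). Of the 21 genes 18 were called higher in the knee with all 7 rats (15 to 19 on leaving out 1 rat) and 7 with those 4 rats. The groups did not overlap for 5 of the 21, against 20.7% of all probe sets. The muscle light chain gene Myl11 and the calcium store gene Casq1, with knee ranges of 5.23 to 12.40 and 4.89 to 11.85, and Pvalb, Tnnc2 and Myot were the 5 genes with the largest SD among the sham knees.

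Other calls moved with the muscle list across the knees, and the part of muscle in them was not tested. Cox6a2, the heart and muscle isoform of a cytochrome c oxidase subunit, was at 11.53 and 11.23 in the knees of C6 and C9, 9.60 and 9.07 in C1 and C2, and 6.78 to 7.16 in the other 3 (1.91 ± 0.59, adjusted p = 0.0273). Its call was lost without C1, without C2, without C6, without C9 and with only rats C1, C3, C6 and C7 (adjusted p up to 0.120). Of 29 oxidative phosphorylation genes 8 were called higher in the knee, where 22.8% of all genes were, and none in the node, with 3 to 9 on leaving out 1 rat and 1 with the 4 rats. The mean of that list was 10.06 and 9.93 in the knees of C6 and C9, 8.85 to 9.38 in the other 5 and 8.80 to 9.12 in the nodes.

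**Figure D2:**
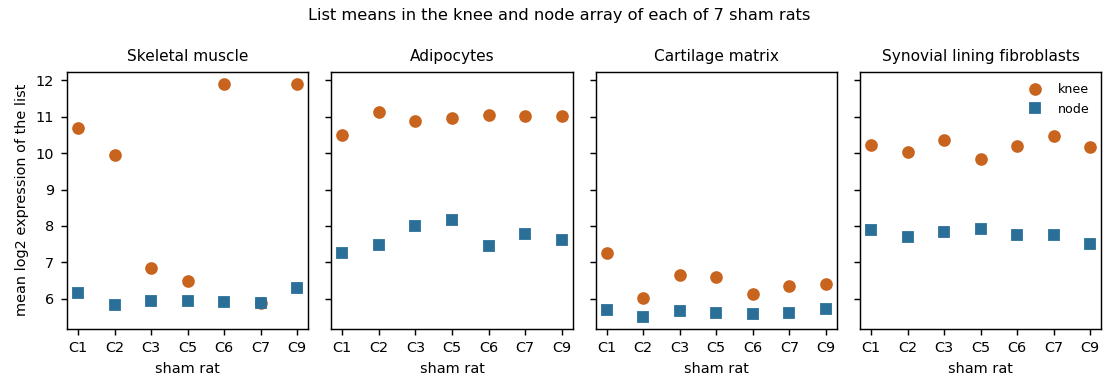
Mean log2 expression of 4 gene lists in the knee (circles) and the node (squares) of each of the 7 sham rats with both tissues. The muscle list runs from 5.88 to 11.91 in the knees, and the adipocyte list only from 10.49 to 11.12; the cartilage list is highest in C1 (7.26).

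Promoter sequences of the muscle list are shown for its count of E-box matches, which was picked after the counts of all lists were seen. RefSeq sequences (GRCr8) of the 250 bases before the annotated start were available for 20 of the 21 genes. The E-box CAGCTG, the core bound by myogenic factors, was found in 8 of the 20 (40.0%) and in 11.9% of all 27457 promoters. The 4 genes with the E-box and the largest called differences are shown, with the E-box in capitals; the motif is its own reverse complement. The windows lie at chr19:68784379-68784444 (minus strand, Acta1, the skeletal actin gene), chr1:88189356-88189421 (plus strand, Ckm), chr13:87212895-87212960 (minus strand, Casq1, calsequestrin) and chr1:213119739-213119804 (plus strand, Pygm, the muscle glycogen phosphorylase).
Acta1: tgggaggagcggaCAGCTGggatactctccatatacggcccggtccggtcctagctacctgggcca
Ckm: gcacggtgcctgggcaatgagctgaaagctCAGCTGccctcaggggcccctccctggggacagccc
Casq1: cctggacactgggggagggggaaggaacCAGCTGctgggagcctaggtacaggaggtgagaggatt
Pygm: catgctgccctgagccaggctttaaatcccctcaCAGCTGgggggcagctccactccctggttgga
A match describes these letters and is no measurement of binding.

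Vessel genes were divided, where 22.8% of all genes were higher in the knee and 24.9% in the node. Of 16 blood endothelium genes 15 were higher in the knee (median 1.25), led by Cd34, a surface sialomucin (2.62 ± 0.12), Vwf, the von Willebrand factor (2.28 ± 0.20), and Emcn, an endothelial sialomucin (2.12 ± 0.09). Cldn5, a tight junction gene, was the exception, at 8.12 to 8.62 in the knees and 9.04 to 9.95 in the nodes (−1.15 ± 0.13). Smooth muscle and pericyte genes were higher in the knee in 12 of 13, among them Cspg4, a pericyte proteoglycan (3.17 ± 0.11), and Actg2, a smooth muscle actin (3.29 ± 0.24). Of 9 lymphatic endothelium genes 4 were higher in the node, 1 was higher in the knee and 4 were not called (median −0.28). Toward the node lay Prox1, the regulator of lymphatic identity (−1.54 ± 0.17), and the chemokine gene Ccl21 (−2.28 ± 0.13). Pdpn, podoplanin, which fibroblasts also carry, was the 1 higher in the knee (1.38 ± 0.13). Of 9 high endothelial venule genes 5 were higher in the node. Chst4, a sulfotransferase of these venules, was at 4.85 to 5.69 in the nodes and 4.12 to 4.85 in the knees (−0.97 ± 0.13), far less than Glycam1. The selectin genes Sele and Selp, which are induced on inflamed venules, were higher in the knee (1.65 ± 0.27 and 1.13 ± 0.22), and the groups overlapped for both.

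**Figure D3:**
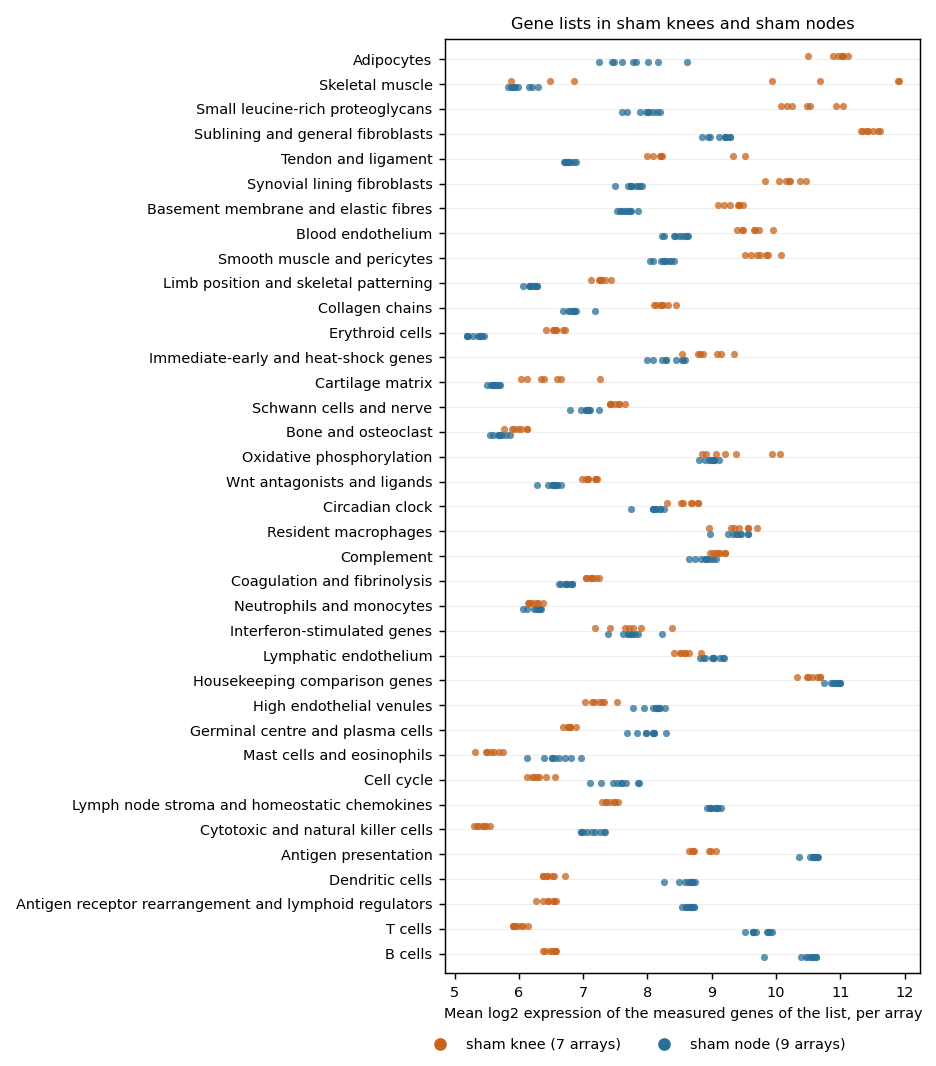
Mean log2 expression of the measured genes of 37 lists in each sham array (orange, 7 knees; blue, 9 nodes), ordered by the median difference of the list. The skeletal muscle list spreads from 5.88 to 11.91 among the knees, and the T cell list separates the tissues (5.91 to 6.14 against 9.51 to 9.93).

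Lymphocyte genes were higher in the node by wide margins. Of 26 T cell genes 25 were higher in the node, all by at least 2-fold (median −4.02), and of 21 B cell genes 19 were (median −4.18). Lef1, a transcription factor of naive T cells, was at a median of 10.46 in the nodes (highest 10.95) and at 4.77 to 5.86 in the knees (median 5.24), a difference of −5.17 ± 0.18. Lck, the kinase of the T cell receptor, differed by −4.60 ± 0.13 and Cd79b, a chain of the B cell receptor, by −5.12 ± 0.13. Spib, a B cell transcription factor, differed by −5.53 ± 0.15. The knees held the lymphocyte genes at 3.95 to 6.97 for Cd3g, Cd3e, Ms4a1, Cd79b, Lck and Lef1, and the groups did not overlap for any of the 6. Over the lists they did not overlap for 25 of 26 T cell and 20 of 21 B cell genes, against 20.7% of all probe sets. Ebf1, a B cell factor that fat and stromal cells also use, was higher in the knee (0.71 ± 0.13, adjusted p = 0.00137). Of 17 germinal centre and plasma cell genes 11 were higher in the node and 4 in the knee, with Tnfrsf13b, the TACI receptor, at −3.72 ± 0.20 and Mzb1, a plasma cell chaperone, at −2.72 ± 0.13.

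Cytotoxic and natural killer cell genes were higher in the node in 16 of 17 (median −1.15), and the other was not called. Prf1, the perforin gene, was at 9.07 to 10.47 in the nodes (median 10.19) and 4.92 to 6.03 in the knees (median 5.79), −4.36 ± 0.19 (adjusted p = 1.09e-07). Klrk1, the activating receptor NKG2D, differed by −3.77 ± 0.23, Ctsw, a lymphocyte protease, by −3.54 ± 0.16 and Klrd1, the receptor CD94, by −2.72 ± 0.12. The promoter table held 13 of the 17 genes. TGTGGT, the core bound by RUNX factors, or its reverse complement ACCACA stood in the 250 bases before the start of 10 of the 13 (76.9%) and of 14.1% of all promoters. Runx3, the RUNX factor of cytotoxic lymphocytes, was at 8.27 to 8.70 in the nodes and 5.01 to 5.67 in the knees (−3.19 ± 0.12). Whether it acts on these genes was not tested, and a motif match is no measurement of binding. Of the genes with the motif, Nkg7, a granule membrane gene, differed by −2.45 ± 0.16 and Gzmk, a granzyme, by −2.0 ± 0.15. Promoter windows of Prf1, Klrk1, Nkg7 and Gzmk are shown with the motif in capitals, at chr20:29788876-29788941 (plus strand, Prf1), chr4:164778471-164778536 (minus strand, Klrk1), chr1:102981361-102981426 (plus strand, Nkg7) and chr2:46582160-46582225 (minus strand, Gzmk).
Prf1: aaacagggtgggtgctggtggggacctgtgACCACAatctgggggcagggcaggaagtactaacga
Klrk1: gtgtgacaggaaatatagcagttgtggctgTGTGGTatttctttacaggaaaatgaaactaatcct
Nkg7: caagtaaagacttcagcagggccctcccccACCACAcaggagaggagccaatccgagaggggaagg
Gzmk: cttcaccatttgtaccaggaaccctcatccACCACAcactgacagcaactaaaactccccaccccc
In all, 14 motifs were searched on both strands in every list, and these 2 pairs of motif and list were picked after the counts were seen. The other 12 were the octamer ATGCAAAT, the ETS motif CCGGAAGT, the PU.1 motif AGAGGAAGT, and loose patterns for MEF2 (CTANNNNTAG), NF-kB (GGGNNNNNCC) and CArG (CCNNNNNNGG) sites. They also held the nuclear receptor direct repeat AGGTCANAGGTCA, the AP-1 motif TGANTCA, the TATA box TATAAA, the GATA factor motif AGATAA, the SOX factor motif ACAATG and the TEAD factor motif CATTCC. N stands for any base, so the patterns for MEF2, NF-kB and CArG are broader than those sites. GGGNNNNNCC was met in 43.5% of all promoters and CCNNNNNNGG in 65.4%, and both can overlap each other.

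Antigen presentation and dendritic cell genes were also higher in the node. Of 22 antigen presentation genes 19 were higher there and none in the knee, among them RT1-DOb, a chain of the rat class II regulator DO (−4.47 ± 0.17), and the class II transactivator gene Ciita (−3.54 ± 0.14). Of 18 dendritic cell genes 16 were, including Ccr7, the receptor that guides these cells and naive T cells to nodes (−4.54 ± 0.12), and Ccl22, a chemokine of mature dendritic cells (−3.85 ± 0.24). Tcf4, a factor of plasmacytoid dendritic cells that stromal cells also carry, was the exception (0.91 ± 0.13). Among 18 genes of node stroma and homeostatic chemokines, 11 were higher in the node. Ccl19, which attracts T cells, was at 9.67 to 10.51 in the nodes and 5.77 to 6.38 in the knees (−4.03 ± 0.12), and the survival factors Il7 (−2.36 ± 0.10) and Tnfsf13b (−2.42 ± 0.11) were higher in the node. Cxcl13, the B cell follicle chemokine, was high in both tissues, at 12.32 to 12.92 in the nodes (median 12.73) and 11.31 to 12.90 in the knees (median 11.62), and the groups overlapped (−0.83 ± 0.19, adjusted p = 0.00673, 0.0826 with only C1, C3, C6 and C7). Ltbr, the lymphotoxin receptor of stromal cells, was the 1 gene of this list higher in the knee (1.12 ± 0.11).

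Cell cycle and lymphoid regulator genes were higher in the node too. Of 29 cell cycle genes 27 were higher in the node (median −1.11), such as the replication licensing gene Mcm3, 12.6-fold (−3.66 ± 0.17). Of 13 genes of antigen receptor rearrangement and lymphoid regulation 11 were, with Ikzf3, the lymphocyte factor Aiolos, at −4.91 ± 0.14. The mean of the cell cycle list was 7.11 to 7.87 in the nodes and 6.12 to 6.56 in the knees.

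Resident macrophage genes split between the tissues. Of 22 genes 8 were higher in the knee and 5 in the node, where 22.8% and 24.9% of all genes were, and 9 were not called. The list mean overlapped (8.96 to 9.71 in the knees, 8.98 to 9.57 in the nodes). Vsig4, the complement receptor that marks macrophages of the synovial lining, was at 10.66 to 11.68 in the knees (median 10.88) and 5.29 to 7.62 in the nodes (median 6.90), 21.1-fold apart (4.40 ± 0.25, adjusted p = 6.61e-07). Trem2, a lipid receptor of lining macrophages, differed by 2.54 ± 0.13, F13a1, which encodes the factor XIII A subunit, by 2.22 ± 0.14 and Cd163, the haemoglobin scavenger receptor, by 1.49 ± 0.17. Marco, a scavenger receptor of medullary and marginal zone macrophages, was at 11.61 to 12.21 in the nodes (median 11.96) and 6.05 to 7.08 in the knees (median 6.51), 42.6-fold apart (−5.41 ± 0.12, adjusted p = 3.73e-09). Spic, a factor of macrophages that take up red cells, differed by −3.56 ± 0.13, Siglec1, which marks sinus macrophages, by −2.77 ± 0.16 and Timd4, a receptor for apoptotic cells, by −2.43 ± 0.19. Cd68, a lysosomal gene of macrophages (−0.27 ± 0.16), Mrc1, the mannose receptor (−0.13 ± 0.14), and C1qa, a complement C1q chain (0.12 ± 0.15), were not called. Csf1r, the growth factor receptor, was at 10.52 to 11.07 in the knees and 11.08 to 11.77 in the nodes, without overlap (−0.66 ± 0.12, adjusted p = 0.00139).

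Granulocyte genes were called in both directions. Of 19 neutrophil and monocyte genes 6 were higher in the knee and 5 in the node, where 22.8% and 24.9% of all genes were. Only 10 of the 19 had a mean above the highest array median in either tissue. Mpo, the myeloperoxidase gene, was at 8.08 to 9.19 in the knees and 5.26 to 6.05 in the nodes, 8.51-fold apart (3.09 ± 0.14), whereas Mmp9 was at 4.54 to 5.58 and 7.94 to 9.70 (−3.69 ± 0.23) and Csf3r, the granulocyte growth factor receptor, at −1.41 ± 0.19. S100a8, a major transcript of neutrophils, was low in both tissues, at 4.09 to 4.64 in the knees and 3.63 to 4.69 in the nodes (adjusted p = 0.536). Of 17 mast cell and eosinophil genes 12 were higher in the node, with Tpsab1, a tryptase, at −2.06 ± 0.27. A mean above the highest array median in either tissue was met by only 9 of the 17. Gata2, a factor that mast cells share with endothelium, was the 1 higher in the knee (0.68 ± 0.09). Of 10 erythroid genes 7 were higher in the knee, led by the globin genes Hbb-b1, at 9.77 to 11.71 in the knees and 6.85 to 8.05 in the nodes (3.59 ± 0.25), and Hba-a1 (2.99 ± 0.23). Just 4 of the 10 had a mean above the highest array median in either tissue. Of the genes of red cell precursors, the transcription factor gene Klf1 was at 4.96 to 5.80 in the knees and 5.24 to 5.54 in the nodes and was not called (adjusted p = 0.995). Ahsp, the chaperone of alpha globin, was at 3.73 to 4.69 and 3.38 to 3.88, with overlapping groups (0.54 ± 0.13, adjusted p = 0.00899, and 0.256 with all 60 arrays in the fit).

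Coagulation genes, of interest in a factor VIII deficiency, were called in both directions. F8 itself, whose probe set need not cover the defect of the strain, was at 5.97 to 7.15 in the knees and 6.38 to 6.91 in the nodes and was not called (0.18 ± 0.16, adjusted p = 0.425). Of 31 genes of coagulation and fibrinolysis 12 were higher in the knee and 7 in the node, where 22.8% and 24.9% of all genes were. Toward the knee lay F3, the tissue factor that starts coagulation, at 9.51 to 10.65 against 7.66 to 8.71 (1.94 ± 0.19, adjusted p = 2.51e-05), and Vwf, the carrier of factor VIII, at 8.92 to 10.22 against 6.94 to 7.42. The endothelial anticoagulants Thbd, thrombomodulin (2.28 ± 0.11), and Procr, the protein C receptor (1.81 ± 0.12), and the protease inhibitor Serpine2 (2.22 ± 0.15) were higher in the knee as well. Toward the node lay F10 at 7.41 to 7.91 against 4.59 to 5.70 in the knees, 6.11-fold apart (−2.61 ± 0.16, adjusted p = 1.06e-06), F5 (−1.92 ± 0.15) and F7 (−1.83 ± 0.14), which encode factors X, V and VII. The groups did not overlap for these 8 called genes, which were picked for their differences or after their values were seen. Over the list they did not overlap for 16 of 31 genes, against 20.7% of all probe sets.

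**Figure D4:**
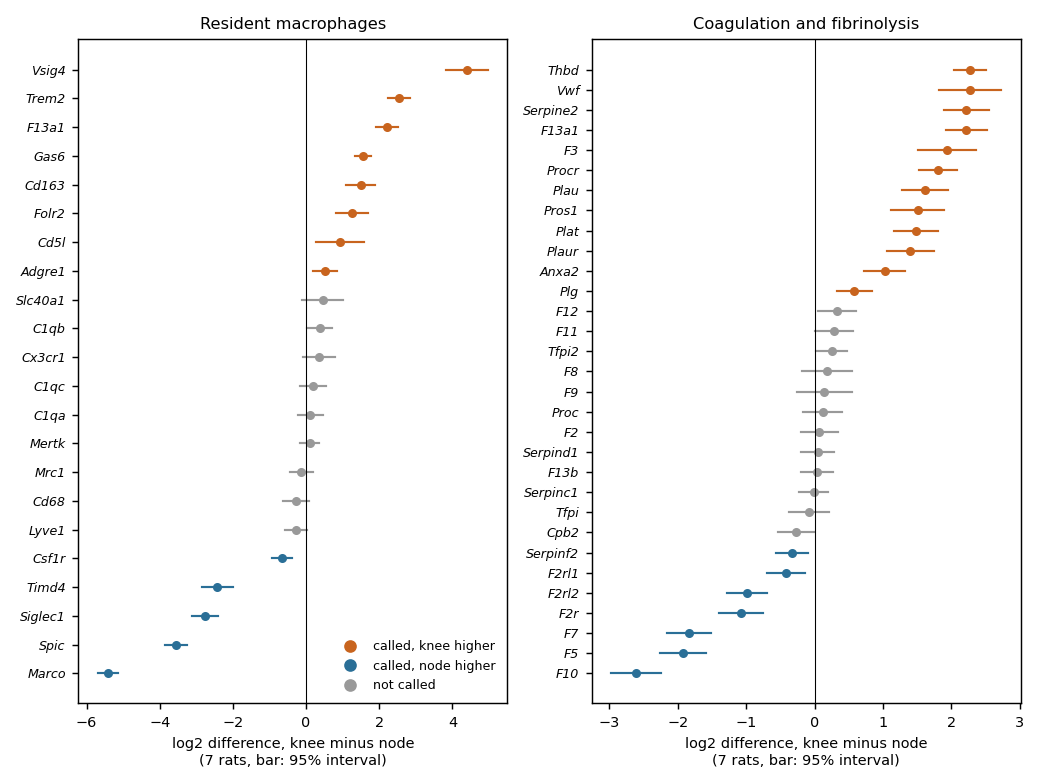
Knee minus node difference (log2, mean of 7 sham rats) with its 95% interval for every measured gene of 2 lists; orange and blue mark genes called higher in the knee or the node and grey those not called. Vsig4 (4.40) and Marco (−5.41) are the ends of the macrophage list, and Thbd (2.28) and F10 (−2.61) those of the coagulation list.

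Complement genes were also called in both directions. Of 22, 8 were higher in the knee and 5 in the node, where 22.8% and 24.9% of all genes were. C6, a component of the lytic complex, was at 10.10 to 10.88 in the knees and 5.39 to 6.75 in the nodes, 23.7-fold apart (4.56 ± 0.16, adjusted p = 3.47e-08), and C7, another component, the other way at 9.93 to 11.12 and 11.62 to 12.09 (−1.51 ± 0.14). C3, the central component, was higher in the node (−2.43 ± 0.12), and the alternative pathway genes Cfd, which fat cells secrete (2.92 ± 0.19), and Cfb (2.12 ± 0.11) in the knee. Of 29 interferon-stimulated genes 6 were higher in the knee and 8 in the node, close to the shares of all genes (22.8% and 24.9%). Mx1, an antiviral GTPase, ran from 6.18 to 9.72 in the knees and overlapped the nodes (8.86 to 10.52), with −1.86 ± 0.34.

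Positional genes of the limb differed between the knee and its neighbouring node. Of 25 such genes 19 were higher in the knee (median 1.19) and 1, Meis2, a homeobox gene, in the node (−1.26 ± 0.15). Of all genes 22.8% were higher in the knee and 24.9% in the node. Tbx5, known for its role in the forelimb and heart, was at 6.68 to 8.30 in the knees (median 7.68) and 4.17 to 5.13 in the nodes (median 4.34), 8.89-fold apart (3.15 ± 0.19, adjusted p = 7.98e-07). Its hindlimb relative Tbx4 (1.28 ± 0.13) and Pitx1, another hindlimb gene (1.38 ± 0.11), were called with smaller differences. Both were chosen after their values were seen. Knees and nodes did not overlap for any of the 3, and over the list for 16 of 25 genes, against 20.7% of all probe sets. Osr2, a factor of joint formation, differed by 2.90 ± 0.12 and Tbx18, which marks mesenchyme, by 2.64 ± 0.13. The posterior homeobox gene Hoxc10 differed by 0.58 ± 0.14, with overlapping groups. Wnt antagonists and ligands were higher in the knee in 12 of 24 and in the node in 4 (median 0.27). Toward the knee they were led after Sfrp4 by Rspo2, a Wnt enhancer (2.49 ± 0.12), Sfrp2 (2.26 ± 0.12) and Frzb (2.15 ± 0.14), both antagonists.

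Nerve, stress and clock genes gave mixed lists, where 22.8% of all genes were higher in the knee and 24.9% in the node. Of 14 Schwann cell and nerve genes 7 were higher in the knee and 4 in the node, the former including S100b (3.25 ± 0.21) and the myelin gene Pmp22 (2.70 ± 0.13), which other cells share. Sox10, the defining factor of Schwann cells, was at 5.81 to 6.56 and 5.72 to 6.24 and was not called (adjusted p = 0.242), and Gfra3, a receptor of the glial cell line-derived factor family (−2.01 ± 0.11), and Cnp, a myelin enzyme (−1.92 ± 0.11), were higher in the node. Of 26 immediate-early and heat-shock genes 14 were higher in the knee and 3 in the node, with the growth response gene Fos at 9.18 to 10.83 and 6.37 to 8.48 (2.55 ± 0.22) and the phosphatase gene Dusp2 at −3.0 ± 0.12. Of 16 circadian clock genes 7 were higher in the knee and 2 in the node, led by Npas2, a partner of the clock factor Bmal1 (2.43 ± 0.09). Among 15 housekeeping genes 7 were called toward the node, none of them by 2-fold (median −0.35). Quantile normalization also gave 7 toward the node, with 1 toward the knee, and centring each array on its median gave 3.

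Some genes differed among the animals within 1 tissue. In the nodes the largest SDs belonged to 4 loci without a gene name (LOC691890, LOC500181, LOC690359 and LOC690794) and to Slpi, a secreted protease inhibitor. Slpi was at 5.35 in the node of C3 and 5.81 in that of C9, and at 10.51 to 11.61 in the other 7, while the knees lay between 4.85 and 7.88 (−3.35 ± 0.64, adjusted p = 0.00207). Spp1, the osteopontin gene, was at 11.26 in the knee of C1 and at 6.74 to 7.45 in the other 6.

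The sham difference was then set beside the right side of the 11 bled rats, which shares no animal with the sham group. Over 18166 genes the differences of both groups correlated with Pearson's r = 0.971, which is across genes and describes the tissues, since all values come from the same array type. Of 2284 probe sets called at least 2-fold toward the knee in sham rats, 2074 were higher in the knee in all 11 contralateral pairs, and of 3045 toward the node 2430 were higher in the node in all 11. A test of the difference between the groups called 166 probe sets as larger in sham (0.453%) and 131 as smaller (0.357%), where larger means further toward the knee. These counts moved with single rats: the 297 calls became 116 without C2, 124 without C6, 152 without C7, 476 without C9 and 69 with only C1, C3, C6 and C7.

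Adipocytes were the list with the largest share of such genes among the 37. Of 21 adipocyte genes 11 had a larger tissue difference in sham and none a smaller one, and the list median was 3.90 in sham and 2.57 in contralateral pairs. The list mean was 7.25 to 8.62 (median 7.78) in sham nodes and 8.19 to 8.83 (median 8.33) in contralateral nodes, against 10.49 to 11.12 and 10.48 to 10.97 in the knees. Cidec was at 5.81 to 8.19 in sham nodes and 7.91 to 8.95 in contralateral nodes, and the differences of the pairs were 1.47 ± 0.24 apart (adjusted p = 0.00565). Angptl4, an inhibitor of lipoprotein lipase, differed by 2.20 in sham and 0.04 in contralateral pairs (2.16 ± 0.35, adjusted p = 0.00565), and Vcan, the proteoglycan versican, by 3.68 and 1.79 (1.89 ± 0.28, adjusted p = 0.00379). Aldh1l2, a mitochondrial folate enzyme (1.96 ± 0.34), Sfrp4 (1.68 ± 0.30), Lipg, an endothelial lipase (1.64 ± 0.26), and Fgf23, a phosphate hormone (1.59 ± 0.36), completed the 6 largest. With only sham rats C1, C3, C6 and C7 the calls of Angptl4 (adjusted p = 0.0687), Vcan (0.0566), Aldh1l2 (0.0644), Sfrp4 and Fgf23 were lost. Sfrp4 lost its call in 2 alternatives (adjusted p up to 0.134) and Fgf23 in 9 (up to 0.272). None of the 21 skeletal muscle genes was called in this comparison, in which the muscle list mean ran from 5.94 to 11.98 in the contralateral knees.

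Of 16 clock genes 2 had a larger and 5 a smaller tissue difference in sham. Bmal1, the core activator, was at 9.27 to 9.77 in sham knees and 6.58 to 9.02 in contralateral knees, and at 8.55 to 8.95 and 8.09 to 8.71 in the nodes (1.56 ± 0.23, adjusted p = 0.00320). Npas2 went the same way, at 10.05 to 10.45 in sham knees and 7.62 to 9.90 in contralateral knees (1.51 ± 0.18, adjusted p = 0.000599). Dbp and Tef, clock output factors, went the other way: Dbp was at 8.81 to 10.15 in sham knees and 10.57 to 12.40 in contralateral knees (−1.36 ± 0.19, adjusted p = 0.00227), and Tef differed by −1.11 ± 0.14. The knees of the groups did not overlap for these 4 genes. Dbp and Tef were picked for this difference and Bmal1 after its values were seen, so the lack of overlap is no separate result. Its share over all probe sets is not given here. At what time of day tissue was collected is not stated by the labels. The other leading genes that were smaller in sham were Fam169b (−1.36 ± 0.26), Fmo2, a flavin monooxygenase (−1.16 ± 0.20), Nat8f3 (−1.14 ± 0.15) and Mthfd1l, a mitochondrial folate enzyme (−1.08 ± 0.16). With only sham rats C1, C3, C6 and C7 the calls of Fam169b (adjusted p = 0.128), Fmo2 and Mthfd1l (0.0568) were lost, and that of Fmo2 also without the block (adjusted p up to 0.0800).

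**Figure D5:**
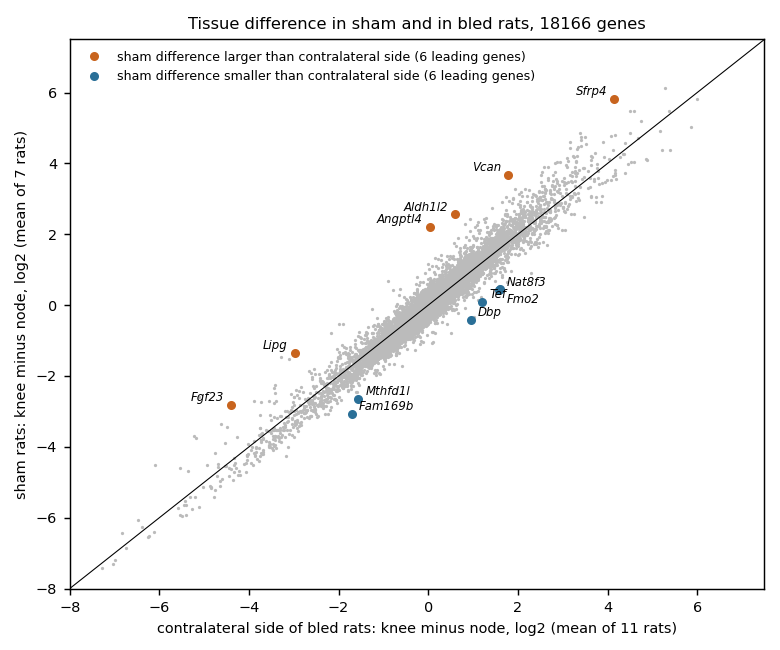
Knee minus node difference of 18166 genes in sham rats (mean of 7) against the contralateral side of bled rats (mean of 11), log2; the line marks equal differences, and coloured points are the 6 leading genes each way. Most genes lie along the line (r = 0.971), and Angptl4 stands at 2.20 against 0.04.

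On the bled side, which was also the left side, the tissue difference departed from sham in far more probe sets, 4115 larger in sham (11.2%) and 5993 smaller (16.3%). Of the 2284 probe sets above, 1291 were higher in the knee in all 11 bled pairs, and of the 3045, 1902 were higher in the node. Sult1a1, a phenol sulfotransferase, was higher in the knee in sham (2.06) and in the node on the bled side (−3.54). Nnat, Lgals12 and Omd, a bone and tendon proteoglycan, which were at 3.32 to 4.82 toward the knee in sham, came to 0.13, 0.23 and −1.11. Lep (−0.66) and Tnfsf10, a death receptor ligand (−3.81), lay toward the node on the bled side and toward the knee in sham (3.76 and 0.49), though the sham call of Tnfsf10 was lost in 7 of the alternatives. The 6 genes that gained most toward the knee were Arg1, Il6, Mmp13, Pla2g7, Spp1 and S100a8, with 6.27, 4.36, 5.54, 2.10, 7.09 and 4.62 in bled pairs against 0.63, −1.09, 0.67, −2.46, 2.58 and 0.13 in sham. They encode an arginine-degrading enzyme, a cytokine, a collagenase, a lipid mediator hydrolase, osteopontin and a calgranulin. In sham knees 4 of the 6 had low signals, Il6 at 4.33 to 4.97, Mmp13 at 4.08 to 4.95, S100a8 at 4.09 to 4.64 and Arg1 at 5.05 to 5.86.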

How the data were processed

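RNA of intra-articular knee tissue and popliteal lymph node was measured on a 1-colour Affymetrix array. The deposited values are log2 expression values, made by the authors with RMA. The software was Affymetrix Expression Console 1.4.46, which the submitters' processing notes name. Whether both tissues were normalized together is not stated there. Of 36685 probe sets, 18511 had 1 gene symbol in the platform annotation, 575 several and 17599 were not listed, and the 18511 stood for 18166 genes. Named lists held 816 entries, of which 712 were measured; where a gene had several probe sets, 1 was used by a fixed rule.

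Knee minus node was fitted with limma 3.58.1 in R 4.3.3 over all probe sets, with Benjamini-Hochberg adjustment. Pairs come from the same animal, so the rat was a block. Knee and node of the same rat had correlations of −0.234 to 0.183 between their deviations from the group means (mean 0.0298). The sham difference was compared with the contralateral and bled differences as a difference of paired differences between rats. Tested on simulated data over 36685 probe sets, the sham fit recovered 62 of 100 changes of 1 log2 unit and 93 of 100 of 2 units, with 10 false calls. The contralateral comparison recovered 91 and 97 of 100, with 9 false calls. In its simulation both groups had the spread of the contralateral pairs of the bled rats. The spread of the sham pairs did not enter it, so recovery at that spread was not tested.

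Named genes were the 15 largest called differences each way, the 4 largest of each list, marker genes, the 6 largest each way of the other comparisons and the 5 most variable in each tissue. These genes were instead chosen after their values were seen: Bmal1, C1qa, C3, C7, Cd163, Cd68, Cfb, Cldn5, Col17a1, Col26a1, Col2a1, Csf1r, Ebf1, Epyc, F13a1, F3, F5, F7, Gata2, Hoxc10, Il7, Ltbp2, Ltbr, Meis2, Mrc1, Pitx1, Procr, Tbx4, Tcf4, Timd4, Tnfsf13b, Trem2 and Vcam1. Nkg7 and Gzmk were named for their promoter windows. Members and lists were chosen with earlier results of these data known. Promoters are RefSeq sequences of GRCr8.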

Additional observations from a re-analysis of the deposited data

Results flagged for a closer look

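In groups of 7 knees or 9 nodes, 166 sets of values were screened for a single array far from the others. Chance alone flags about 1 of 20 independent groups, and 18 were found. The sets were not independent, since they share arrays and list means hold their own genes, so the 18 cannot be read against that rate. Of the 18, 9 were of the node of C9 and 6 of the knee of C1. The knee of C1 was lowest for the adipocyte list mean (10.49, the others 10.89 to 11.12), Cidec (10.83), Pck1 (10.87), Adipoq (12.50) and Plin1 (11.44), and highest for Acan (9.12). The knee of C6 was lowest for Cr2 (3.39) and that of C7 highest for Dpt (12.37). The node of C9 was lowest for the means of the B cell (9.82, the others 10.39 to 10.62), antigen presentation (10.36) and clock lists (7.74), and highest for the collagen list (7.18). It was also lowest for Htra4 (6.23), B3gnt5 (11.16), Ms4a1 (10.82), Slamf6 (10.19) and Pdgfra (9.64). As a whole, that array correlated less with the other nodes (mean r = 0.960, the others 0.976 to 0.985), so its flags may not be particular to these genes. The node of C2 was lowest for the Wnt list mean (6.28).

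A further 24 genes had tissue differences that differed between sham and another group by the limma test of the difference itself. Against the contralateral side, the sham difference exceeded the other by 2.16 for Angptl4, 1.96 for Aldh1l2, 1.89 for Vcan, 1.68 for Sfrp4, 1.64 for Lipg and 1.59 for Fgf23. For Fam169b and Dbp it was −1.36 each, for Fmo2 −1.16, for Nat8f3 −1.14, for Tef −1.11 and for Mthfd1l −1.08. Against the bled side, it was 5.60 for Sult1a1, 4.62 for Nnat, 4.58 for Lgals12, 4.42 for Omd and for Lep, and 4.30 for Tnfsf10. In the other direction it was −5.64 for Arg1, −5.45 for Il6, −4.88 for Mmp13, −4.56 for Pla2g7, −4.51 for Spp1 and −4.48 for S100a8.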

How the results depend on the processing

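Over the named genes and all their comparisons, none of 5228 recomputed values reversed a called direction. Of 4841 recomputed values of called genes, 106 lost their call, in 39 results, among them muscle genes with only rats C1, C3, C6 and C7. Leaving out each rat gave 4785 to 6486 probe sets higher in the knee and 7187 to 8912 in the node. All 60 arrays with the rat as a random block gave 9063 higher in the knee, and 1 probe set per gene gave 4846 higher in the node, 1458 of them by at least 2-fold, out of fewer probe sets tested. Without the replicate block, the 16 sham arrays gave 6913 and 9093 calls and the 14 paired arrays 6173 and 8620.

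The contralateral comparison was less stable, and the cause was not tested. Its 166 larger differences became 327 without the replicate block, 297 with quantile normalization, 87 with arrays centred on their median, 289 among brighter probe sets and 48 with only C1, C3, C6 and C7. Its 131 smaller differences became 419 without the replicate block, 55 with centring, 324 among brighter probe sets, 82 with an intensity trend and robust prior, 230 with 1 probe set per gene and 21 with those 4 rats. Leaving out each sham rat gave 70 to 216 larger and 44 to 260 smaller. Arrays limit the precision by their number, 7 pairs, and nothing says how far a probe set lies above background.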
